A study of Mus musculus with 6 samples.

Results

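MHC class II molecules display peptides from engulfed and endosomal proteins to CD4+ T cells. They are made mainly by dendritic cells, macrophages and B cells. The genes described here are H2-Aa (ENSMUSG00000036594), H2-Ab1 (ENSMUSG00000073421), H2-Eb1 (ENSMUSG00000060586), H2-DMa (ENSMUSG00000037649), H2-DMb1 (ENSMUSG00000079547), Cd74 (ENSMUSG00000024610), Ciita (ENSMUSG00000022504) and Ctss (ENSMUSG00000038642). They were taken by symbol from the deposited tables, and all 8 were found among the 20672 genes listed in any count table. All 8 passed the filter on low counts, which left 15856 genes.

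The series holds bulk RNA-seq of 6 mouse libraries: 2 from the infrapatellar fat pad, the adipose tissue behind the patellar tendon, 2 from the rectus femoris, a thigh muscle, and 2 from the Achilles tendon. Its title names female mice and letrozole, an aromatase inhibitor that lowers oestrogen synthesis. Both fat pad titles carry the drug's name and no muscle or tendon title does. No library is labelled as a control, and the sources used here give no dose, duration, strain or age. The title codes also differ between tissues and share a part within each tissue, and no label says what that part marks. Tissue, drug and whatever the codes mark therefore cannot be told apart. Each comparison below is one between tissues as labelled. Whether a tissue's libraries stand for different mice or for pools is in no label, so the p-values below speak for the spread between libraries alone, and that spread may be technical. Under source and under tissue all 6 libraries are labelled as fat pad, while the treatment label separates 3 tissues. The marker sums followed the treatment label: adipocyte markers summed to 57455 and 64537 TMM-scaled CPM (counts relative to library size after scaling by the trimmed mean of M-values, called scaled CPM below) in the fat pad against 194 to 1944 elsewhere, muscle fibre markers were highest in the rectus femoris (191382 to 208271) and tendon cell markers highest in the Achilles tendon (4537 and 7790). The tendon libraries also held 17491 and 48350 scaled CPM of muscle fibre markers, above their own tendon marker sums. Total counts were 83132413 and 106319037 in the fat pad and 56216295 to 62063826 in the other 4 libraries.

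For muscle and tendon, the deposited TPM, an abundance per transcript length and library size, did not follow the deposited counts. Across genes with at least 100 counts, the log2 ratio of library 2 over library 1 in TPM correlated with that in counts at a Pearson r of 1 in the fat pad (13692 genes), -0.171 in the rectus femoris (11818 genes) and -0.204 in the Achilles tendon (13140 genes). Over 14914 genes, log2 counts of muscle library 2 correlated at 0.876 with their own TPM and 0.898 with TPM of muscle library 1. Those of tendon library 2 correlated at 0.831 with their own TPM, 0.857 with tendon library 1 and 0.854 with muscle library 1. Counts of the other libraries correlated best with their own TPM. These correlations are across genes, which are not independent replicates. Which unit belongs to the labelled muscle and tendon libraries is uncertain. Values below are from counts unless TPM is named.

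In the pathway, H2-Aa with H2-Ab1 encode the alpha and beta chains of the I-A molecule, and H2-Eb1 the beta chain of I-E. Cd74, the invariant chain, escorts new class II molecules to endosomes and blocks their groove. Cathepsin S, encoded by Ctss, degrades the invariant chain to a remnant, CLIP. H2-DM, made of H2-DMa and H2-DMb1, then exchanges CLIP for peptides. Ciita is the coactivator that turns on the class II genes. It acts through a complex of RFX, CREB and NF-Y factors bound to the X and Y boxes of their promoters.

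Promoter windows of 300 bases (250 before to 50 after the annotated start, RefSeq, GRCm38.p6) were found for 5 of the 8 genes. The stretches below are shown because they hold an X-box-like and a Y-box-like sequence side by side. Capitals mark GNAACT, part of the X box, and TGATTGG, the Y box with its inverted CCAAT core. H2-Aa is on the minus strand at chr17:34287857-34287914, H2-Eb1 on the plus strand at chr17:34305766-34305822 and H2-DMb1 on the plus strand at chr17:34153087-34153144.
H2-Aa: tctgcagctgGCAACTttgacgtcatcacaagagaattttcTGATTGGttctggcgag
H2-Eb1: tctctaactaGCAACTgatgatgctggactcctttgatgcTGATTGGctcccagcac
H2-DMb1: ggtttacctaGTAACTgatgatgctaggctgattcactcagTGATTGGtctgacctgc

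The motifs were separated by 25 bases in H2-Aa, 24 in H2-Eb1 and 25 in H2-DMb1. The search covered both strands, and the motifs were chosen after the sequences had been seen. Of 32851 windows of that length, 7.82% held the Y box letters and 42.8% held the X box letters. Both, the X box first and 15 to 40 bases between them, were in 0.244% (80 windows). No such pair lay in the windows of H2-DMa or Ctss. A match is a description of the letters and not evidence of binding.

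In counts the fat pad had the highest level of all 8 class II pathway genes, above the rectus femoris and above the Achilles tendon. The mean fold over muscle ran from 2.61 for Ciita to 31.3 for Ctss, and over tendon from 3.89 for Ciita to 25.5 for Ctss. Both fat pad libraries lay above both muscle libraries for 8 of 8, as they did for 43.7% of all genes tested, and above both tendon libraries for 8 of 8, as for 40.4% of all genes. In the edgeR quasi-likelihood test with Benjamini-Hochberg adjustment, 8 of 8 were called higher against muscle, where 29.8% of all genes tested were called higher and 29.6% lower. Against tendon 8 of 8 were called higher, where 27.2% of all genes were called higher and 31.4% lower. The median log2 fold change of the 8 was 3.06 against muscle, beside 0.14 for all genes tested, and 2.92 against tendon, beside -0.01. The comparisons share their fat pad libraries, so they are not independent. In bulk tissue, fewer class II-bearing cells and less class II RNA per cell cannot be told apart.

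**Figure D1:**
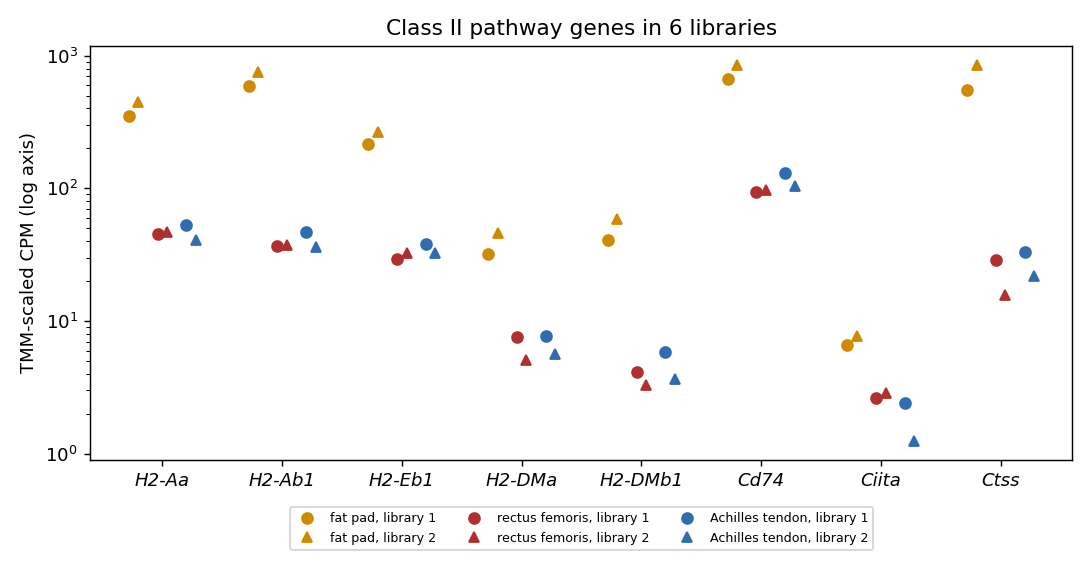
Scaled CPM (log axis) of the 8 genes in each of the 6 libraries, circles for library 1 and triangles for library 2 of a tissue. For every gene both fat pad points lie above all muscle and tendon points, with Ciita the lowest of the 8 in each library.

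H2-Aa, the I-A alpha chain, stood at 353 and 449 scaled CPM in libraries 1 and 2 of the fat pad, at 45.5 and 46.5 in the rectus femoris and at 53.4 and 41.1 in the Achilles tendon. The fat pad libraries were the highest, and the muscle values fell inside the tendon range. Its log2 fold change was 3.12 ± 0.25 (SE) over muscle (edgeR quasi-likelihood test, Benjamini-Hochberg adjusted p = 8.85e-05) and 3.09 ± 0.25 over tendon (adjusted p = 0.000117).

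The partner chain H2-Ab1 stood at 586 and 747 scaled CPM in the fat pad, with 36.6 and 37.2 in muscle and 47.1 and 36.2 in tendon. Its log2 fold change over muscle was 4.17 ± 0.27 (edgeR quasi-likelihood test, Benjamini-Hochberg adjusted p = 5.61e-05), the largest of the 5 class II chains among the members, and over tendon 4.0 ± 0.27 (adjusted p = 7.92e-05).

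H2-Eb1, the I-E beta chain, stood at 215 and 265 scaled CPM in the fat pad, with 29.2 and 32.7 in muscle and 38.3 and 32.5 in tendon. The log2 fold change was 2.96 ± 0.22 over muscle and 2.76 ± 0.21 over tendon (edgeR quasi-likelihood test, Benjamini-Hochberg adjusted p = 7.19e-05 and 0.00011). Its alpha partner H2-Ea was not analysed here.

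Cd74, the invariant chain, stood at 668 and 854 scaled CPM in the fat pad, with 93.8 and 96.5 in muscle and 130 and 105 in tendon. Its log2 fold change was 3.00 ± 0.26 over muscle and 2.69 ± 0.25 over tendon (edgeR quasi-likelihood test, Benjamini-Hochberg adjusted p = 0.000118 and 0.000198). Both tendon libraries lay above both muscle libraries, which in counts held for no other member in that direction.

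The peptide exchange chains were less abundant. H2-DMa stood at 31.8 and 46.0 scaled CPM in the fat pad, with 7.55 and 5.09 in muscle and 7.67 and 5.68 in tendon, with a log2 fold change of 2.62 ± 0.32 over muscle and 2.54 ± 0.32 over tendon (edgeR quasi-likelihood test, Benjamini-Hochberg adjusted p = 0.000485 and 0.000571). H2-DMb1 stood at 41.1 and 59.0 in the fat pad, with 4.14 and 3.28 in muscle and 5.84 and 3.68 in tendon, with a log2 fold change of 3.75 ± 0.34 and 3.39 ± 0.33 (adjusted p = 0.000136 and 0.000216). H2-DMb2 is a near-identical copy of H2-DMb1, so the split of reads between the 2 genes is uncertain. Of H2-DMa, 10.4% of the exonic bases are shared with another gene.

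Ctss had the largest differences of the 8. It stood at 549 and 848 scaled CPM in the fat pad, with 29.0 and 15.7 in muscle and 33.0 and 21.7 in tendon. The log2 fold change was 4.97 ± 0.45 over muscle and 4.67 ± 0.45 over tendon (edgeR quasi-likelihood test, Benjamini-Hochberg adjusted p = 0.000147 and 0.000207). Its libraries also differed most within the fat pad, by 1.54-fold.

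Ciita, the coactivator, had the smallest differences. It stood at 6.64 and 7.67 scaled CPM in the fat pad, with 2.62 and 2.86 in muscle and 2.42 and 1.25 in tendon. The log2 fold change was 1.38 ± 0.43 over muscle (edgeR quasi-likelihood test, Benjamini-Hochberg adjusted p = 0.0276) and 1.96 ± 0.43 over tendon (adjusted p = 0.00718). The call against muscle was lost without fat pad library 2 (log2 fold change 1.27, adjusted p = 0.091), without muscle library 1 (1.32, adjusted p = 0.132) and without muscle library 2 (1.45, adjusted p = 0.11). In deposited TPM tested with limma the Ciita difference over muscle was 0.13 (adjusted p = 0.792).

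**Figure D2:**
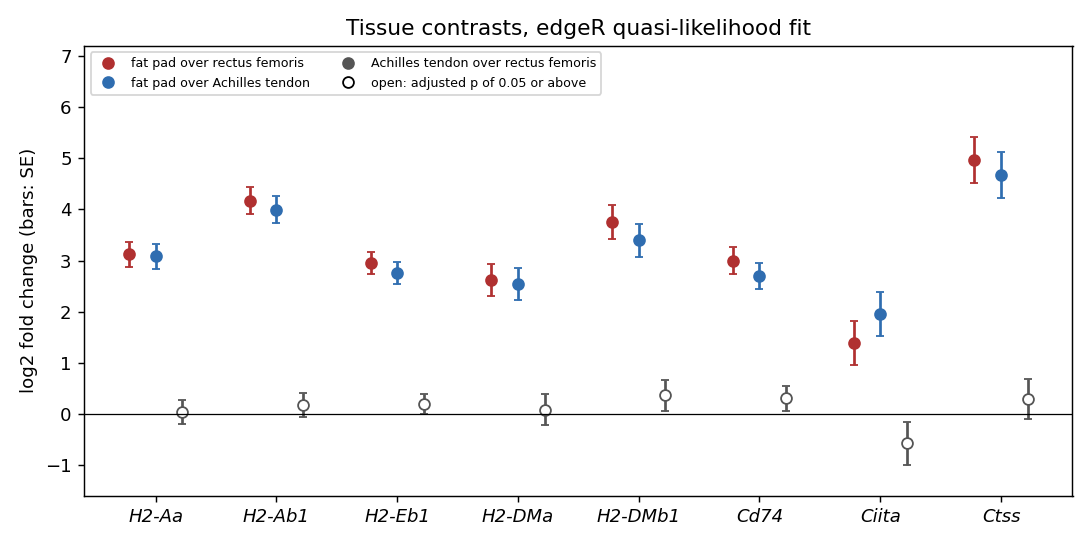
Log2 fold changes with standard errors from the edgeR fit for the 3 tissue comparisons, filled where the adjusted p was under 0.05. Both fat pad comparisons are filled for all 8 genes, from 1.38 to 4.97, and tendon over muscle is open for all 8.

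The call against tendon depended on the unit. With limma on log2(TPM + 1), 3 of 8 genes were called higher over tendon: Ctss (2.82), H2-Ab1 (1.95) and H2-DMb1 (1.24). In that fit 10.7% of 14929 genes were called higher and 54.3% lower. The other members had values of 0.98 for H2-Aa, 0.81 for H2-DMa, 0.65 for H2-Eb1, 0.62 for Cd74 and -0.39 for Ciita. The libraries overlapped in TPM for 3 of these: Cd74 stood at 486 and 643 TPM in fat pad libraries 1 and 2 and at 619 in tendon library 2, H2-Eb1 at 151 and 193 against 183, and Ciita at 0.922 and 1.10 against 3.01. In TPM both fat pad libraries lay above both tendon libraries for 5 of 8 members. The same held for 16.5% of all genes, while 65% lay below without overlap. Against muscle 7 of 8 were called higher in TPM, where 20.3% of genes were called higher and 38.6% lower. Ciita overlapped there too, with 1.12 TPM in muscle library 1. The other 7 lay higher in both fat pad libraries, as did 31.3% of all genes, while 50.9% lay lower.

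No member passed the test between Achilles tendon and rectus femoris. The tendon libraries held 17491 and 48350 scaled CPM of muscle fibre markers, against 208271 and 191382 in muscle. What that content contributed to this comparison was not tested. With the edgeR quasi-likelihood test and Benjamini-Hochberg adjustment 0 of 8 were called, where 13.3% of all genes tested were called higher in tendon and 12.7% lower. The count at an unadjusted p under 0.05 was 0, and DESeq2 called 0. The log2 fold changes of tendon over muscle ran from -0.58 ± 0.42 for Ciita (adjusted p = 0.341) to 0.36 ± 0.31 for H2-DMb1 (adjusted p = 0.414). The libraries of the 2 tissues did not overlap for 2 of the 8 genes, beside 70.1% of all genes tested. Ciita was higher in both muscle libraries and Cd74 in both tendon libraries, at 0.30 ± 0.24 (edgeR quasi-likelihood test, Benjamini-Hochberg adjusted p = 0.374). Scaling by total counts instead of the trimmed mean called 5 of 8 higher in tendon, while moving the median of all genes from 0.10 to 0.83. In TPM both tendon libraries lay above both muscle libraries for 7 of 8 genes, as for 64.3% of all genes in that fit. Limma on TPM called Ctss (2.09) and H2-DMb1 (1.35) higher, where 29.1% of genes were called higher and 3.57% lower.

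In the fat pad the 8 genes took 0.267% and 0.346% of all counts. They took 0.0180% and 0.0186% in the rectus femoris and 0.0418% and 0.0290% in the Achilles tendon. Such shares amount to scaling by total counts, the setting that called 5 of 8 members higher in tendon than in muscle. By this measure too the fat pad lay above the rest.

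Levels of different genes were compared per kilobase of exonic length (GENCODE M21), as mean scaled CPM per kb. In the fat pad the order was Ctss 515, Cd74 453, H2-Ab1 259, H2-Eb1 123, H2-Aa 106, H2-DMb1 29.8, H2-DMa 11.3 and Ciita 0.75. In the rectus femoris Cd74 led at 56.7, followed by Ctss 16.5, H2-Eb1 15.9, H2-Ab1 14.4, H2-Aa 12.1, H2-DMb1 2.21, H2-DMa 1.83 and Ciita 0.288. The tendon order was Cd74 70.0, Ctss 20.2, H2-Eb1 18.2, H2-Ab1 16.2, H2-Aa 12.4, H2-DMb1 2.83, H2-DMa 1.93 and Ciita 0.193. Ctss and Cd74 were neighbours in the fat pad whose libraries overlapped, at 405 and 624 for Ctss and 398 and 509 for Cd74. In muscle Ctss was second in the mean alone, at 21.4 per kb in library 1 but 11.5 in library 2, below H2-Eb1 (16.8), H2-Ab1 (14.5) and H2-Aa (12.2) in that library. In tendon it stood at 24.3 and 16.0, against 19.7 and 16.7 for H2-Eb1. H2-Ab1 stood above H2-Eb1 in the fat pad and below it in the means of muscle and tendon. The order differed in TPM, where Ctss in muscle (39.0 and 26.4) lay below H2-Aa (67.1 and 64.2), H2-Eb1 (55.5 and 57.6) and H2-Ab1 (47.8 and 52.4), and H2-Aa in the fat pad (234 and 308) lay above H2-Eb1 (151 and 193).

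The balance of the chains differed between the fat pad and the other tissues. H2-Ab1 took 62.4% (95% Clopper-Pearson interval 62.1 to 62.7) of the combined H2-Aa and H2-Ab1 counts in fat pad library 1 and 62.4% (62.2 to 62.7) in library 2. It took 44.6% (42.9 to 46.3) and 44.4% (42.8 to 46.0) in muscle and 46.9% (45.8 to 48.0) and 46.9% (45.5 to 48.2) in tendon. These intervals hold counting error alone. Libraries of 1 tissue lay within 1 percentage point of each other, and both fat pad libraries were apart from the other 4. A share compared across libraries is free of gene length and of scaling, as long as reads were assigned alike. In TPM the same share was 59.8% and 59.9% in the fat pad, against 41.6% and 45% in muscle and 43.8% and 42.3% in tendon.

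H2-DMb1 took 56.3% and 56.2% of the H2-DM counts in the fat pad, compared with 35.4% and 39.2% in muscle and 43.2% and 39.4% in tendon. In TPM these shares were 79.0% and 78.9%, 69.8% and 67.7%, and 73.3% and 74.7%. So in counts and in TPM the beta chain's share was highest in both fat pad libraries, for I-A and for H2-DM alike. Cd74 relative to H2-Aa varied less, at 1.89 and 1.90 counts per H2-Aa count in the fat pad, with 2.06 and 2.07 in muscle and 2.44 and 2.55 in tendon. H2-Eb1 per H2-Aa count was 0.609 and 0.589, 0.641 and 0.703, and 0.718 and 0.790. The fat pad count table lists 20516 genes and the tables of muscle and tendon list 17120 each, so a difference in gene model or counting and a difference in tissue cannot be told apart here.

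**Figure D3:**
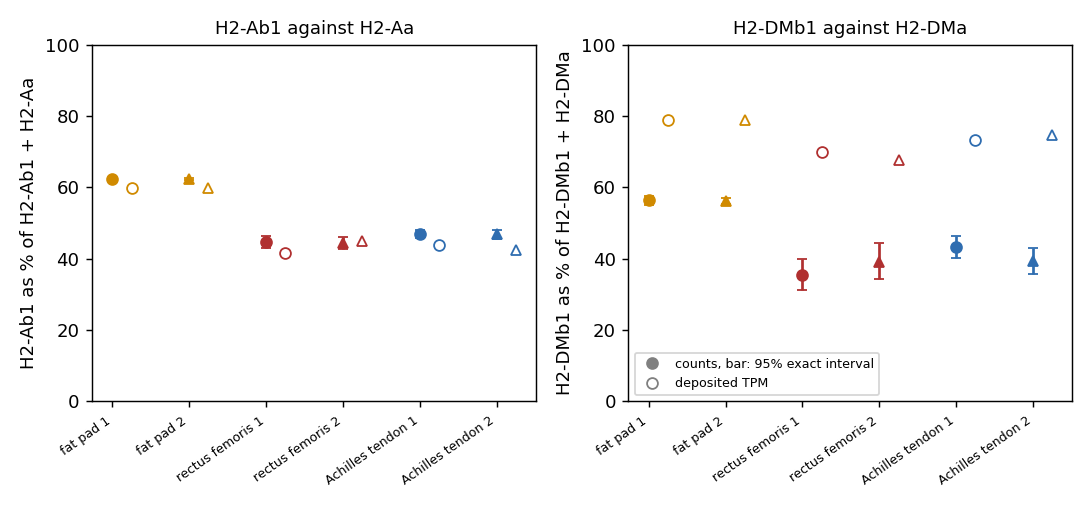
Share of H2-Ab1 in H2-Ab1 plus H2-Aa (left) and of H2-DMb1 in H2-DMb1 plus H2-DMa (right), in percent, for each library, with 95% exact intervals for counts and open symbols for deposited TPM. In both panels and both units the fat pad libraries are the highest, with 62.4% against 44.4% to 46.9% for H2-Ab1 counts.

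Marker sums of 6 kinds of leukocytes were also highest in the fat pad in counts. The calls of single markers stand beside 29.8% of all genes called higher over muscle and 27.2% over tendon. Macrophage markers summed to 1379 and 2261 scaled CPM in the fat pad, against 229 to 253 in muscle and 183 to 238 in tendon, and 8 of 9 were called higher in the fat pad in each comparison (median log2 fold change 3.10 over muscle and 3.37 over tendon). Mrc1 was the exception, at -0.58 over muscle and 0.19 over tendon. Dendritic cell markers summed to 49.1 and 74.5, 15 and 21.4, and 26.0 and 21.5, with 3 of 8 called higher over muscle and 2 of 8 over tendon, beside 29.8% and 27.2% of all genes. Cd209a (2.79 over muscle) and Ccr7 (4.34) were among those called, while Xcr1, Clec9a, Flt3, Zbtb46 and Itgax were not called in either comparison.

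B cell markers summed to 77.9 and 20.8 in the fat pad against 1.02 to 1.66 elsewhere. Of these markers 5 of 6 were called higher over muscle and 4 of 6 over tendon. For this list and those below, the shares of all genes called higher were 29.8% over muscle and 27.2% over tendon. Monocyte markers summed to 261 and 88.5 in the fat pad and 11.2 to 18.6 elsewhere, with 4 of 4 called in each comparison. Neutrophil markers summed to 1787 and 242 in the fat pad and 0.258 to 6.10 elsewhere, with 6 of 6 called in each comparison. T cell markers summed to 14.2 and 11.6 in the fat pad and 1.49 to 3.85 elsewhere, with 4 of 6 and 3 of 6 called. In TPM tendon library 2 held more than both fat pad libraries for some of these sums. T cell markers summed to 28.9 TPM there against 11.2 and 10.9 in the fat pad, and B cell markers to 276 against 118 and 31.5. The dendritic cell sum of 51.0 TPM in tendon library 2 lay between the fat pad values of 39.9 and 60.4. Markers at 0 counts in at least 1 muscle or tendon library included Ms4a1, Cr2, Chil3, Flt3, Ccr7, Cd8a and Cd8b1. The part of each cell type in the class II differences was not tested.

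Within the fat pad all 8 members were higher in library 2, by 1.16-fold (Ciita) to 1.54-fold (Ctss). Of 13692 fat pad genes with at least 100 counts, 50.3% were higher in library 2 by scaled counts. The macrophage and dendritic sums were also higher in library 2. The B cell, T cell, monocyte and neutrophil sums were lower in library 2. Single markers did not all follow their sum: the 9 macrophage markers were all higher in library 2, while the dendritic markers Ccr7 (0.501 of library 1), Clec9a (0.849) and Batf3 (0.963) were lower, and the T cell markers Cd3e (2.42) and Cd8b1 (1.37) and the B cell marker Cr2 (1.19) were higher. With 1 library on each side there is no replicate check of that difference. In the authors' deposited table the fat pad log2 fold change of library 1 over library 2 was negative for all 8, at -0.36 for H2-Aa and -0.64 for Ctss, with an adjusted p of 0.999915 for each.

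To set the members beside a gene carried by nearly all leukocytes, counts were divided by those of Ptprc, which encodes CD45. H2-Ab1 stood at 20.5 and 29.2 counts per Ptprc count in the fat pad, with 3.97 and 4.23 in muscle and 3.95 and 7.47 in tendon. Ctss stood at 19.2 and 33.1, 3.15 and 1.78, and 2.77 and 4.48. The mean ratio in the fat pad over that in muscle was 10.6 for Ctss, 6.06 for H2-Ab1, 4.55 for H2-DMb1, 2.92 for H2-Aa, 2.68 for Cd74, 2.60 for H2-Eb1 and 2.08 for H2-DMa. Ciita was the exception over muscle at 0.872, with 0.232 and 0.300 in the fat pad inside a range of 0.203 to 0.326 in the other tissues. H2-DMa also overlapped between fat pad and tendon, at 1.11 and 1.80 in the fat pad and 0.643 and 1.17 in tendon.

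The choice of leukocyte gene changed these ratios. Laptm5 and Coro1a, other genes of leukocytes, were used in addition to the planned Ptprc. Per Laptm5 count, the mean ratio of fat pad to muscle was 1.01 for H2-Aa, 0.924 for Cd74, 0.892 for H2-Eb1 and 0.734 for H2-DMa, while H2-Ab1 stood at 2.09, H2-DMb1 at 1.58, Ctss at 3.79 and Ciita at 0.302. Per Coro1a count the same ratios were 1.18, 1.09, 1.05, 0.853, 2.45, 1.86, 4.37 and 0.352. Ctss, H2-Ab1 and H2-DMb1 had the 3 highest ratios of fat pad to muscle by each denominator, and Ciita was below 1 over muscle by all 3. Fat pad over tendon, the ratios per Laptm5 count were 1.50 for H2-Aa, 1.14 for Cd74, 1.19 for H2-Eb1, 1.02 for H2-DMa, 2.82 for H2-Ab1, 1.86 for H2-DMb1, 4.49 for Ctss and 0.71 for Ciita, and Ciita stood at 1.15 per Ptprc count. These are ratios of means of 2 libraries and were not tested.

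**Figure D4:**
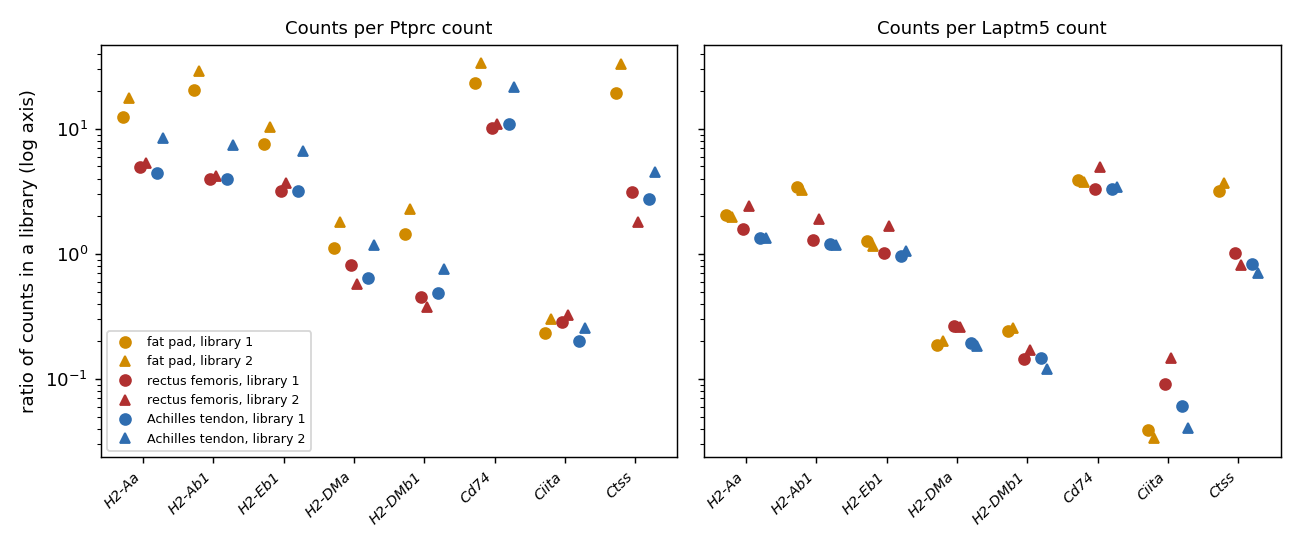
Counts of each member per Ptprc count (left) and per Laptm5 count (right) in each library, on a log axis. Per Ptprc the fat pad is highest for H2-Ab1 and Ctss, per Laptm5 H2-Aa and Cd74 overlap between fat pad and muscle, and Ciita per Laptm5 is lowest in the fat pad.

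Other genes of the pathway were read from the same fit. Of the other class II chains, H2-DMb2, H2-Oa and H2-Ob were tested. Over muscle 3 of 3 were called higher, beside 29.8% of all genes tested, with a median log2 fold change of 3.92. H2-Oa and H2-Ob encode H2-O, which restrains H2-DM. H2-Ob stood at 3.56 and 4.57 scaled CPM in the fat pad, with 0.417 and 0.528 in muscle and 1.08 and 0.893 in tendon. H2-Oa stood at 1.62 and 0.676 in the fat pad and at 0 in both muscle libraries. Set against 3 counts per muscle library, H2-Oa was at least 16.4-fold higher in the fat pad. Over tendon 2 of 3 were called higher in counts. In TPM fat pad and tendon overlapped for all 3. H2-DMb2 stood at 10.2 and 8.52 TPM in fat pad libraries 1 and 2, with 1.97 and 23.9 in tendon libraries 1 and 2. H2-Ob stood at 1.23 and 1.64 against 1.14 and 15.1, and H2-Oa at 1.71 and 0.739 against 0.629 and 5.26.

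The endosomal proteases and the thiol reductase Ifi30 unfold and cut antigens. In counts 8 of 8 were called higher in the fat pad over muscle (median 2.50) and 8 of 8 over tendon (median 2.15). The shares of all genes tested were 29.8% and 27.2%. Ctsh had a log2 fold change of 3.42 over muscle, Ctsz 3.35, Lgmn 2.33 and Ifi30 1.92. In tendon over muscle Ctsk, a collagen-degrading cathepsin, was the 1 of 8 called, at 2.34 ± 0.27. Of all genes tested, 13.3% were called higher there and 12.7% lower. In TPM the fat pad and tendon libraries overlapped for Ctsk, at 627 and 728 against 293 and 1049. They also overlapped for Ifi30, at 163 and 217 against 90.8 and 195.

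Most factors that bind the class II promoter were called lower in the fat pad than in muscle. Of 7, 1 was called higher over muscle (Rfxank, 0.60) and 5 lower, with a median of -0.85. Of all genes tested, 29.8% were called higher there and 29.6% lower. Rfx5 stood at 7.46 and 9.69 scaled CPM in the fat pad, with 18.3 and 13.7 in muscle and 11 and 11.7 in tendon. Of the exonic bases, 33.8% of Rfxank and 26.8% of Rfx5 are shared with another gene, so their counts are uncertain. Nfya, a subunit of NF-Y, had the largest difference of the 7, with 0.796 and 1.30 in the fat pad, with 14.3 and 19.3 in muscle and 27.5 and 25.5 in tendon (log2 fold change -4.0 ± 0.33 over muscle). Its partners Nfyb and Nfyc were called lower over muscle at -0.85 and -0.76. Over tendon 1 of 7 was called higher and 2 lower, beside 27.2% and 31.4% of all genes.

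Of the genes for turnover and costimulation, 3 of 5 were called higher over muscle and 1 lower, beside 29.8% and 29.6% of all genes tested. Cd86, a costimulatory ligand, had a log2 fold change of 3.57 and Cd40 one of 2.93. Marchf1, a ligase that removes class II from the surface, was not called (1.65), and Marchf8 was called lower (-0.76).

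Class I presentation, which serves CD8+ T cells, was higher as well. Of its genes, 8 of 10 were called higher over muscle (median 2.53) and 9 of 10 over tendon (median 2.20). The shares of all genes tested were 29.8% and 27.2%. B2m, whose product pairs with every class I heavy chain, stood at 5.19 on the log2 scale over muscle, and H2-D1 at 4.59. Nlrc5, the class I counterpart of Ciita, was not called (0.58 over muscle).

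Interferon gamma is the main inducer of Ciita outside professional presenting cells. Genes of its axis were called in both directions, as were genes at large. Of 9 tested, 4 were called higher over muscle and 3 lower, beside 29.8% and 29.6% of all genes tested. Cxcl9 stood at 4.80 and Irf1 at 2.31, against Jak2 at -2.56, Ifngr2 at -1.74 and Jak1 at -1.52. Ifng itself, with 4 and 22 counts in fat pad libraries 1 and 2, was not tested.

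Which library was higher depended on the unit for every member in tendon, and for some members in muscle. In the Achilles tendon 0 of 8 members were higher in library 2 by counts, at 0.516 to 0.848 of library 1. By TPM 8 of 8 were higher there, at 2.01 to 4.17 times library 1. Of 13140 tendon genes with at least 100 counts, 51.8% were higher in library 2 by scaled counts and 74.9% by TPM. H2-Aa had 53.4 and 41.1 scaled CPM but 80.5 and 229 TPM. The authors' deposited table gives log2 fold changes of library 1 over library 2 of -1.26 for H2-Aa, -1.29 for Cd74 and -1.81 for Ciita in tendon, the direction of the TPM, with an adjusted p of 0.999986 for each. B cell markers in tendon library 2 summed to 276 TPM against 3.34 in library 1, but to 1.02 and 1.66 scaled CPM in libraries 2 and 1. Tendon library 1 also held more adipocyte marker counts (1944 against 238 scaled CPM) and fewer muscle fibre counts (17491 against 48350), whereas in TPM the adipocyte sums were 4679 and 4789 and the muscle fibre sums 82249 and 58022 in libraries 1 and 2. In the rectus femoris 5 of 8 were higher in library 2 by counts (0.540 to 1.12) and 3 of 8 by TPM (0.522 to 1.10). H2-Ab1 and H2-Eb1 were higher in library 2 in both units, and H2-DMb1 and Ctss lower in both. H2-Aa, Cd74, Ciita and H2-DMa changed direction with the unit. Of 11818 muscle genes with at least 100 counts, 53.0% were higher in library 2 by scaled counts and 26.3% by TPM.

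**Figure D5:**
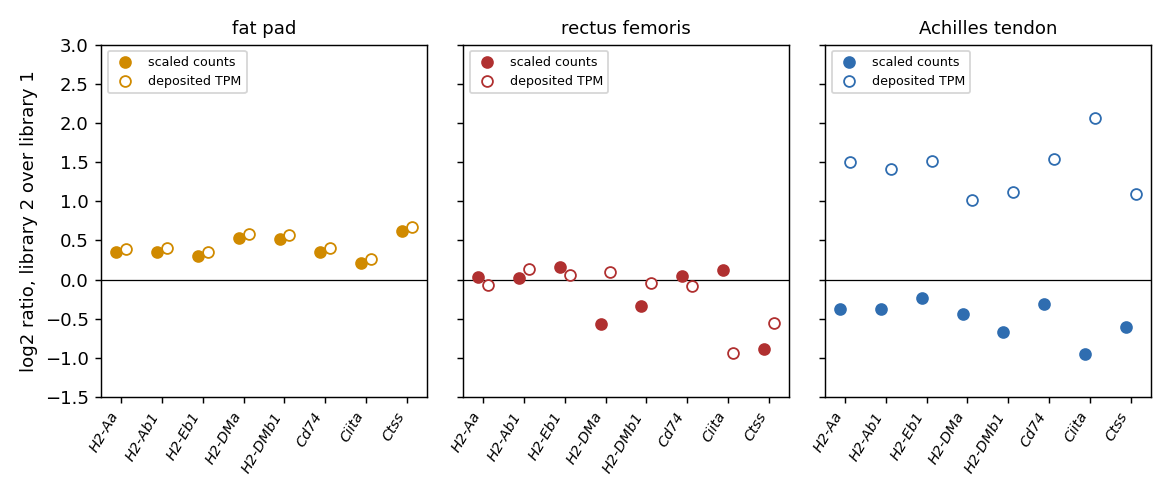
Log2 ratio of library 2 over library 1 for the 8 genes in each tissue, filled for scaled counts and open for deposited TPM. In the fat pad the symbols coincide above 0, and in the Achilles tendon all counts lie below 0 and all TPM above it.

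The genes whose pattern over the 6 libraries was nearest to the mean pattern of the class II chains and Cd74 were Sdc2, Adh1, Eno1b, Dhrs7, Abhd6, Tcn2, H2-M3 and Alox5. Likeness was the root mean square difference between centred log2(CPM + 1) profiles, among 9700 genes with a mean of at least 10 scaled CPM. It ran from 0.106 for Sdc2 to 0.154 for Alox5. The members themselves lay at 0.0687 for H2-Aa, 0.134 for Cd74, 0.134 for H2-DMb1, 0.149 for H2-Eb1, 0.341 for H2-DMa, 0.459 for H2-Ab1, 0.838 for Ctss and 0.862 for Ciita. Sdc2 stood at 471 and 551 scaled CPM in the fat pad, with 52.2 and 58.4 in muscle and 77.0 and 61.1 in tendon. Of the listed genes Ctsh ranked 34 and H2-K1 45.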

How the data were processed

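The authors deposited whole-number read counts per Ensembl gene, unnormalized, in 1 table per tissue, and TPM in a separate table with their own comparison of library 1 against library 2 (log2 fold change, log2 CPM, a p-value also given as −log10, and the adjusted value), per the file headers. Bowtie2, RSEM 1.3.1, DESeq2 1.4.5 and GRCm39 are named, without roles, in the submitters' processing notes. How reads were counted, whether by strand and on which annotation is not given in the sources used here, so antisense overlap cannot be separated. The authors' tables gave symbols for 18924 genes, a names table for 1740, and 8 had none. Unused per-sample columns numbered 0.

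The 16964 genes listed in all 3 count tables were fitted with edgeR 4.0.16 in R 4.3.3 (TMM scaling, filterByExpr, glmQLFit and glmQLFTest with each tissue as a term, Benjamini-Hochberg over 15856 genes, threshold 0.05, biological coefficient of variation 0.336). A standard error is the log2 fold change over the root of F. Alternatives used DESeq2 1.42.0, limma 3.58.1 on log2(TPM + 1), other scalings, no filter, a replicate block and leaving out each library. A count of 0 allows up to 3 counts, 0.0282 to 0.0534 CPM. Exonic lengths and promoter windows are from GRCm38 annotation and were used for lengths and sequences only.

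All 8 members were named. Genes of the pathway and marker lists could be named with their values, and 1 list member is not reported here. The 8 genes most like the chains were ranked by profile distance. Members and lists were chosen with earlier results of these data known. The motifs, and the Laptm5 and Coro1a denominators, were added after values were seen.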

Additional observations from a re-analysis of the deposited data

How the results depend on the processing

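In the comparison of fat pad with rectus femoris, the count of class II genes called was 7 to 8 when each library was left out in turn, and 8 against Achilles tendon and 0 for tendon over muscle in every such fit. DESeq2 size factors, no filter, the DESeq2 test and a fit of the 2 tissues alone left the counts of members called at 8, 8 and 0. Limma on TPM gave 3 of 8 in fat pad against tendon and 2 in tendon over muscle, and scaling by total counts gave 5 for tendon over muscle. The cause was not tested. The TPM fit also turned Ciita to -0.39 in fat pad against tendon and to 0.52 in tendon over muscle. None of the tendon over muscle values that changed sign passed the threshold in either fit: H2-Aa was -0.0328 with DESeq2 size factors and -0.0309 with DESeq2, and Ciita was 0.17 with total counts. With each library left out in turn, the tendon over muscle value ran from -0.18 to 0.22 for H2-Aa, -0.0393 to 0.36 for H2-Ab1, -0.17 to 0.40 for H2-DMa, -0.0235 to 0.66 for H2-DMb1 and -0.0757 to 0.81 for Ctss. The values below 0 came without tendon library 1 (all 5 genes) or without muscle library 2 (H2-DMa and Ctss).

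Tissues share library numbers only by label. With the number as a replicate block, 8, 8 and 0 members were called, and Ciita over muscle stayed called at 1.39 (edgeR quasi-likelihood test, Benjamini-Hochberg adjusted p = 0.0437). Deviations of same-numbered libraries correlated at -0.0267 (fat pad and muscle), 0.00217 (fat pad and tendon) and -0.167 (muscle and tendon), so the numbers were not taken as pairs. Crossing the numbers of tendon and muscle, chosen after seeing that value, called 5672 of 14875 genes against 1283 with the numbers as labelled, and 0 members.

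Each spread rests on 2 libraries a tissue, and Ciita rests on 91 to 863 counts per library.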
